A study of Mus musculus with 8 samples.

Results

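The 35 genes described here encode the folding machinery of the endoplasmic reticulum (ER) and the stress response that guards it. They were listed by function and not by any measured value, though with earlier results of these data known. Each matched 1 of the 21887 protein-coding genes of the RefSeq gene table used here, and a gene was said to have a target when a peak centre lay inside its span or within 20 kb of it. Ero1l and Ero1lb carry the symbols Ero1a and Ero1b in that table. Chromatin had been immunoprecipitated and sequenced from Beta-TC6 cells, an insulinoma line from a transgenic mouse whose beta cells express a viral large T antigen under an insulin promoter. The labels give no treatment and a harvest at confluence, and there was 1 library for each of 6 targets: the clock factors BMAL1 and CLOCK, the beta-cell factor PDX1, the histone marks H3K4me2 and H3K27ac, and the histone variant H2A.Z. Each was called against 1 of 2 input libraries. With 1 library a target there was no replicate check, so counts and shares are given as descriptions of these libraries and carry no p-value. Total tags ranged from 12892080 for BMAL1 to 26678241 for H3K4me2. All 10 beta-cell marker genes (among them Ins1, Ins2 and Mafa) had H3K27ac within 1 kb of a gene end, as did 1 of 9 markers of other pancreatic cells (Gcg) and 0 of 4 markers of other tissues.

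Secretory cells fold their cargo in the ER. BiP (Hspa5) and GRP94 (Hsp90b1) bind unfolded chains, calnexin and calreticulin hold glycoproteins, and disulfide isomerases with their ERO1 oxidases form the disulfide bonds that proinsulin needs. When unfolded protein builds up, 3 membrane sensors, IRE1 (Ern1), PERK (Eif2ak3) and ATF6, start the unfolded protein response. IRE1 splices Xbp1 mRNA, PERK phosphorylates eIF2alpha (Eif2s1) and so favours ATF4 translation, and cleaved ATF6 enters the nucleus. The ER stress element, a CCAAT box and a CCACG box held 9 bases apart, is the known site at which ATF6 and NF-Y act on chaperone promoters. Beta cells depend on this response because of their insulin load.

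Promoter sequences come first because the chromatin described below is centred on them. RefSeq promoter windows (250 bases before to 50 after the gene start, GRCm38.p6, the coordinates of mm10) were matched for 31 of the 35 genes. Hyou1, Manf, Atf6 and Ppp1r15b had no entry. This element (CCAAT and CCACG with any 9 bases between them, on either strand) was found in 9 of the 31 windows (29.0%), against 19 of the 17461 other protein-coding genes with a window (0.109%). Many of the genes are textbook targets of the unfolded protein response, so the choice of genes and this element are not independent. Either form of the element, the second described below, was in 11 of the 31 windows (35.5%), against 0.149%. The matches are written in the direction of the element, with its fixed letters in capitals and the spacer in lower case:
Hspa5: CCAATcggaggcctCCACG
Hsp90b1 (first copy): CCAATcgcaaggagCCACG
Hsp90b1 (second copy): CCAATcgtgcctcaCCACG
Calr: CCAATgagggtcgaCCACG
Canx: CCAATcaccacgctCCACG
Dnajc3: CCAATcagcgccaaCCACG
Creld2: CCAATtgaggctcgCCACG
Pdia6: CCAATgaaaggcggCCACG
Ero1lb: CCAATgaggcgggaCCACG
Syvn1: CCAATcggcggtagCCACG
They began between 44 bases (Syvn1) and 212 bases (Hsp90b1) upstream of the start. Those of Calr, Creld2, Ero1lb and the second copy of Hsp90b1 lay on the strand opposite to the gene. By role, the carriers were 6 of the chaperone genes, Pdia6 and Ero1lb of disulfide formation, and Syvn1, the ubiquitin ligase of ER-associated degradation. None of the sensor or signalling genes with a window matched exactly. A mismatch allowed in the last 5 letters added matches at Ddit3, Herpud1, Pdia3, Pdia4 and Sel1l and a further one at Hsp90b1, 6 windows in all, against 1.01% of the other genes. This looser search was not among the motifs first planned. The shorter second form of the element, ATTGG and CCACG with any 1 base between, known from the human HERPUD1 promoter and searched after the first results were seen, was in 2 windows against 0.0401% of the other genes:
Herpud1: ATTGGgCCACG
Dnajb11: ATTGGcCCACG
The Herpud1 match began 52 bases upstream of the start and the Dnajb11 match 7 bases downstream of it.

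The 250 bases before the start are shown in gene direction for 3 genes that carry these elements, with the exact matches in capitals (chr2:34771840-34772089 on the plus strand for Hspa5, chr10:86705445-86705694 on the minus strand for Hsp90b1 and chr8:94386179-94386428 on the plus strand for Herpud1):
Hspa5: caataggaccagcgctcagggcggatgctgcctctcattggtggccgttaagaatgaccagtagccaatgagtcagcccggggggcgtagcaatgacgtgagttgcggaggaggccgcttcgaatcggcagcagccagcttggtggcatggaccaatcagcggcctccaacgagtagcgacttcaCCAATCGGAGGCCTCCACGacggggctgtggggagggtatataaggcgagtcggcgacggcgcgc
Hsp90b1: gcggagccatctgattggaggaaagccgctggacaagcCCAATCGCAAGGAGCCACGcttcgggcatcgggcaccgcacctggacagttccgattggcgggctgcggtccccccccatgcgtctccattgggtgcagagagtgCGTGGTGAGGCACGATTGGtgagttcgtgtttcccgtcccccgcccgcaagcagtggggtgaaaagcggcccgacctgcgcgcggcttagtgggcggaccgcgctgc
Herpud1: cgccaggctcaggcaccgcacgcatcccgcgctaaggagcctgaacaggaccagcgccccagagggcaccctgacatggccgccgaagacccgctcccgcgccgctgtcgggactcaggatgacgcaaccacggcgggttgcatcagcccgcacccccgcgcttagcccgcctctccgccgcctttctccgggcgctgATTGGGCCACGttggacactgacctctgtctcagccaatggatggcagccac
Of the other motifs searched, the UPR element TGACGTGG was in 0 of the 31 windows against 0.682% of the other genes. The composite site TGATGNAAT of ATF4 and C/EBP proteins was likewise in 0, against 0.808%. The E-box CACGTG, the sequence bound by the BMAL1 and CLOCK pair, was in 3 windows (Calr, Dnajb9 and Ssr1, 9.68%) against 7.90%. No match of one motif overlapped a match of another in these genes. An absent match says only that these letters are not in the window.

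At 19 of the 31 ER gene starts H3K4me2 lay on both sides and left the start itself uncovered. At 700 bp upstream 28 of the 31 genes were covered by an H3K4me2 interval, at the start 10, and at 1000 bp downstream 29. The other genes gave 35.1%, 37.6% and 42.0% at the same positions. An uncovered start with an interval within 1.5 kb on each side was found at 19 of the 31 genes (61.3%), against 9.80% of the other genes. H3K4me2 within 1 kb of the start in any arrangement was found at 29 of 31 (93.5%), against 55.0%. Those with an uncovered start included the major chaperone genes Hspa5, Hsp90b1, Calr and Canx, the isomerase genes P4hb, Pdia3 and Pdia4, both ERO1 genes, the sensor genes Ern1 and Eif2ak3, and Atf4, Ddit3, Herpud1, Sel1l and Syvn1. At some, among them Hsp90b1, Pdia3, Ddit3 and Eif2s1, the upstream interval was centred inside a neighbouring gene (Ttc41, Catsper2, Mbd6 and Atp6v1d in turn). Neighbouring gene starts were not counted in either group. The uncovered stretch was 501 bp at Ero1lb and 1184 bp at Ern1, the shortest and the longest, with a median of 796 bp. In the other genes it ran from 499 to 2597 bp, with a median of 763 bp. The medians were close while the frequency was not. Because an interval was required within 1.5 kb on each side, the length was bounded in both groups, so close medians say little.

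**Figure D1:**
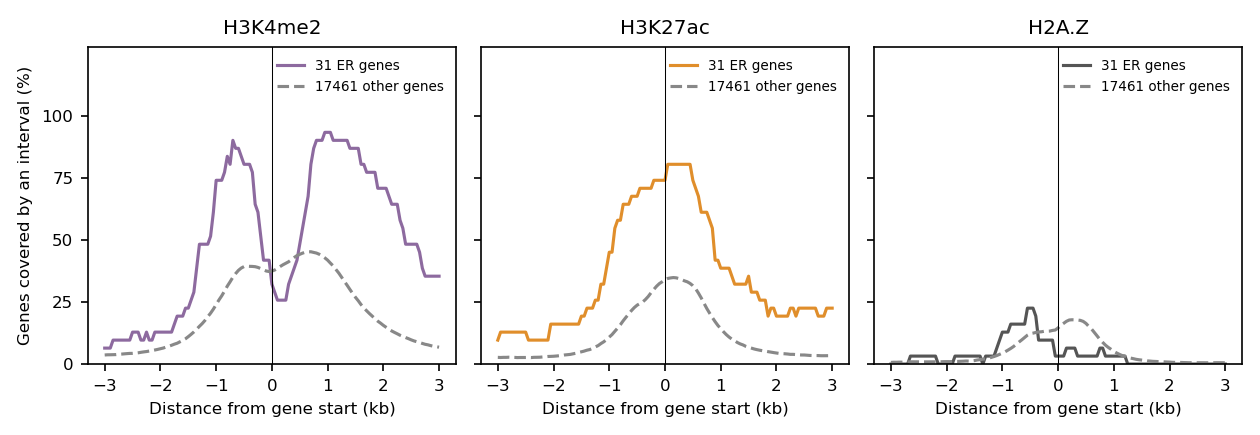
Share of genes covered by an interval (y axis, %) at each distance from the gene start (x axis, kb, positive in the direction of transcription) for 31 ER genes (coloured lines) and 17461 other protein-coding genes (dashed grey), 1 panel per mark. For H3K4me2 the ER genes fall to 32.3% at the start between 90.3% upstream and 93.5% downstream, for H3K27ac they reach 80.6% just downstream of the start, and H2A.Z covers 3.23% of them at the start.

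H3K27ac lay over most of these uncovered starts. At 16 of the 19 it lay over the start, and at Eif2ak3, Sdf2l1 and Sel1l it did not. Among the other genes with such a stretch 82.7% had H3K27ac over the start, a share close to the 84.2% of the ER genes. A single H3K27ac interval spanned the whole uncovered stretch at 12 of the 19 (63.2%), against 65.7%, and at Canx, Dnajb9, Ero1l and Pdia4 it covered the start without reaching both flanking H3K4me2 intervals. In all, 23 of 31 ER genes (74.2%) had an interval over the start, against 34.1%, and 26 (83.9%) had one within 1 kb, against 39.5%. Among these 26 genes the uncovered start between H3K4me2 intervals was present at 17 (65.4%), against 21.8% of the other genes with H3K27ac there, and H3K4me2 lay over the start at 7 (26.9%), against 59.5%. Starts with more H3K27ac more often had the H3K4me2 pattern, from 7.05% of the other genes in the lowest to 39.9% in the highest of 5 classes of H3K27ac tags. Among genes with H3K27ac over the start the pattern was present at 16 of 23 ER genes (69.6%). The other genes had it in 31.7% of cases when weighted to the same classes of tags and in 23.8% unweighted. A list of other genes of ER protein handling and stress was set beside them. It held translocon, glycosylation and degradation genes, and also further folding, disulfide and stress response genes. Among the 65 of that list with a window the pattern was at 16 (24.6%), and among 36 cytosolic chaperone genes at 14 (38.9%). The exact ER stress element was in 1 and 0 of these promoters.

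H2A.Z, the variant often placed at nucleosomes next to active starts, was scarce on the ER genes themselves. It covered the start of 1 of the 31 genes, Pdia6, against 14.6% of the other genes, and that of 1 of the 26 genes with H3K27ac within 1 kb (3.85%), against 20.9%. Within 1 kb of the start the counts were alike, 10 of 31 genes (32.3%) against 32.2%. Windows reach 20 kb beyond each side of a span, and how intervals divide between span and flank was not measured for other genes. Of the 43 H2A.Z intervals in the windows of the 35 genes, 40 had their centre outside the gene span. The exceptions, chosen after their values were seen, were 1 interval each inside Atf6, Syvn1 and Ssr1. Thus 3 of 35 genes (8.57%, Wilson 95% interval 2.96 to 22.4) had H2A.Z inside the span, against 33.3% of all others and 30.6% of others of like span. H2A.Z intervals are the weakest of the marks here, with 3.12% of the library's tags in intervals, and thin signal may not have been detectable at this depth.

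The 6 targets were then counted in the window of each gene. Longer genes catch more peaks, so each share was also set beside that of other genes of like span, an average over the span deciles in which the ER genes lie. H3K4me2 was found at 35 of 35 genes (100%, Wilson interval 90.1 to 100), while 74.7% of the other genes and 77.8% of those of like span had it. H3K27ac was found at 32 of 35 (91.4%, 77.6 to 97.0), against 63.0% and 65.1%. H2A.Z was at 26 of 35 (74.3%, 57.9 to 85.8), against 60.5% and 62.0%. PDX1 was at 16 of 35 (45.7%, 30.5 to 61.8), against 41.2% and 36.2%. CLOCK was at 7 of 35 (20%, 10.0 to 35.9), against 8.21% and 8.41%, and BMAL1 at 5 of 35 (14.3%, 6.26 to 29.4), against 14.0% and 12.6%. The interval left out the like-span share for H3K4me2, H3K27ac and CLOCK, and held it for H2A.Z, PDX1 and BMAL1. With a window of 5 kb CLOCK was at 4 ER genes and with scores of at least 20 at 3, and its interval then held the like-span share. With a window of 50 kb the interval left that share out for PDX1 (71.4% against 54.9%) and H2A.Z (94.3% against 75.5%) too, and for H2A.Z it also did so when any overlap with the 20 kb window counted (80% against 62.2%). These intervals cover counting error only, and neighbouring genes share windows and are not replicates. Whether an interval holds the like-span share is therefore a description and not a test of enrichment.

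**Figure D2:**
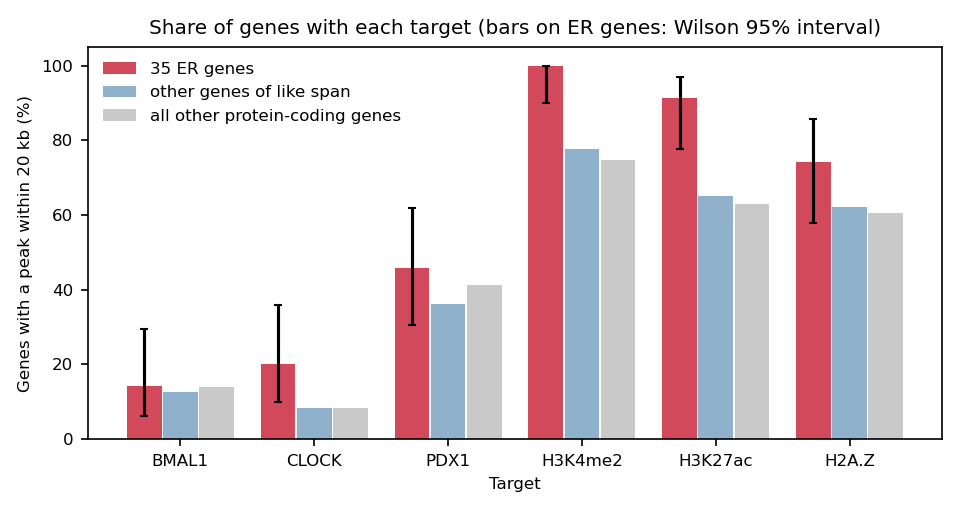
Share of genes (y axis, %) with a peak or interval of each target (x axis) within 20 kb, for the 35 ER genes (red, Wilson 95% interval), other genes of like span (blue) and all other protein-coding genes (grey). The ER genes stand at 100% for H3K4me2, 91.4% for H3K27ac and 20% for CLOCK, against 77.8%, 65.1% and 8.41% of genes of like span.

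Among acetylated genes the differences were smaller in size for CLOCK, PDX1, H3K4me2 and H2A.Z, while for BMAL1 and H2A.Z the ER genes had the lower share. Among genes with H3K27ac within 1 kb of a gene end, 30 of them ER genes, CLOCK was at 7 (23.3%) against 13.4% of the others of like span. BMAL1 was at 4 (13.3%) against 18.1%, PDX1 at 14 (46.7%) against 43.8%, H2A.Z at 23 (76.7%) against 79.5% and H3K4me2 at 30 (100%) against 98.2%. The CLOCK share was 9.91 percentage points above the like-span share there, and the intervals of both CLOCK and H3K4me2 then held that share. The other genes of ER protein handling and stress had CLOCK in 9.52% of cases (8 of 84), against 8.23% of genes outside that list. H3K27ac was at 98.8% of them, against 62.9%, H2A.Z at 78.6%, against 60.4%, and H3K4me2 at 97.6%, against 74.7%. PDX1 was at 50%, against 41.2%. The cytosolic chaperone genes had CLOCK in 18.6% of cases (8 of 43), against 8.21%. H3K4me2 was at 100% of them, against 74.7%, H3K27ac at 97.7%, against 63.0%, H2A.Z at 81.4%, against 60.5%, and PDX1 at 48.8%, against 41.2%. Like-span shares for these lists in turn were 8.73% and 8.23% for CLOCK and 40.3% and 34.3% for PDX1. High shares of H3K4me2 and H3K27ac were thus not particular to the ER genes.

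**Figure D3:**
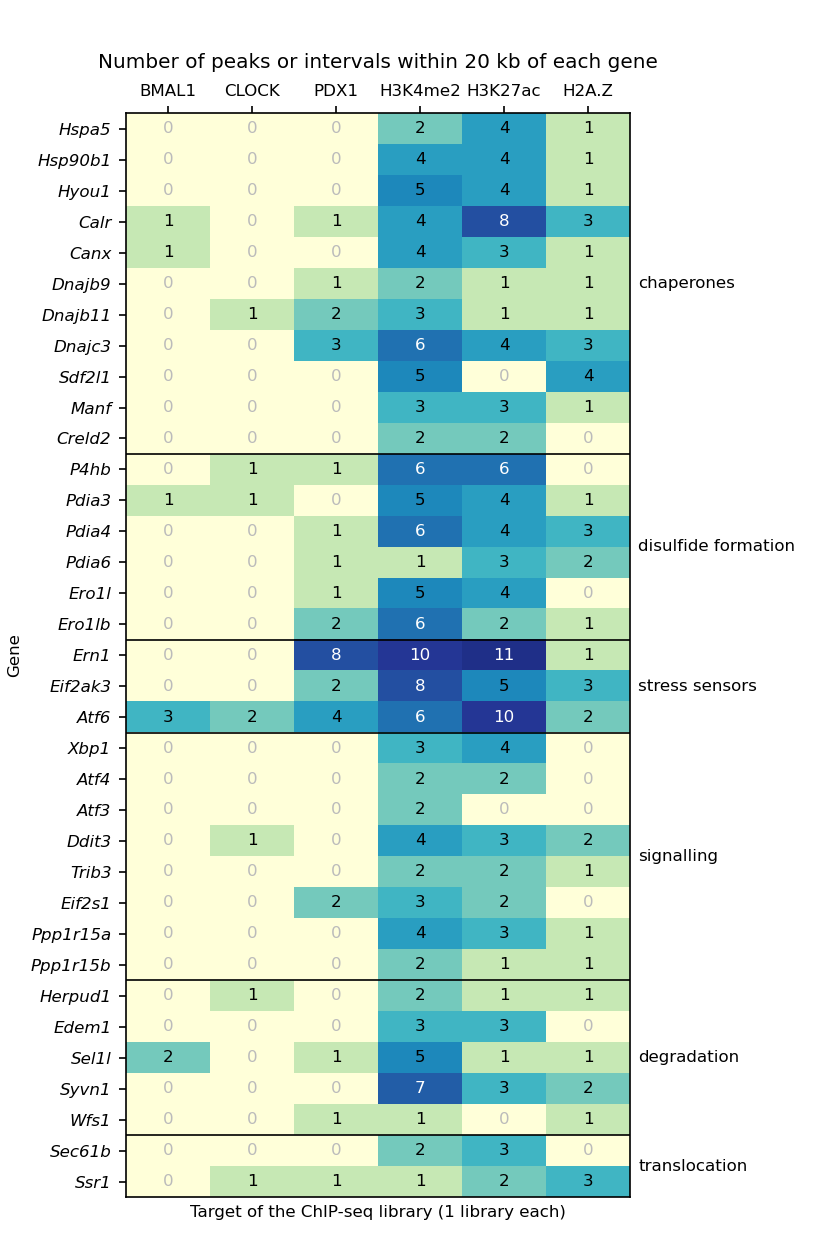
Number of peaks or intervals of each target (columns) with their centre within 20 kb of each of the 35 ER genes (rows, grouped by role); darker cells hold more. H3K4me2 is present in every row, H3K27ac is missing at Sdf2l1, Atf3 and Wfs1, and Atf6 is the 1 gene with all 6 targets.

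CLOCK peaks at the ER genes were few, and the one with the highest score was inside Herpud1, whose membrane protein assists ER-associated degradation. It lay at chromosome 8, 94387428 to 94387632, 1101 bp downstream of the start, with a score of 40 (the authors' score, which ranks peaks within a list), 6.22 times the input and rank 80 of the 1378 CLOCK peaks. It was within a 3202 bp H3K27ac interval that spans the Herpud1 start and within H3K4me2. The element printed above for Herpud1 lies upstream of the start and outside the peak. No BMAL1 or PDX1 peak was called in the Herpud1 window. The remaining 7 CLOCK peaks had scores from 13 to 20. By fold over input the order differed, with 37.3 at Pdia3, 29.5 at P4hb and 23.6 at the Atf6 peak near a gene end, against 6.22 at Herpud1, which drops out when 8 times the input is required.

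At P4hb, which encodes protein disulfide isomerase, the CLOCK peak (chromosome 11, 120573455 to 120573659, score 15, 29.5 times an input of 0.5 tags) was centred 304 bp upstream of the start, in H3K27ac and overlapping the edge of H3K4me2. At Dnajb11, the BiP co-chaperone ERdj3, the peak (chromosome 16, 22857425 to 22857629, score 15) was centred 318 bp upstream, inside the neighbouring gene Tbccd1, in H3K4me2 and outside H3K27ac. These were the only CLOCK peaks within 1 kb of a start among the 31 genes with a window (6.45%, against 2.40% of the other genes). BMAL1 and PDX1 had 0 of 31 there, against 1.95% and 2.37%. Both promoters are shown with the bases under the edge of the CLOCK peak in capitals (chr11:120573254-120573503 on the minus strand for P4hb and chr16:22857595-22857844 on the plus strand for Dnajb11):
P4hb: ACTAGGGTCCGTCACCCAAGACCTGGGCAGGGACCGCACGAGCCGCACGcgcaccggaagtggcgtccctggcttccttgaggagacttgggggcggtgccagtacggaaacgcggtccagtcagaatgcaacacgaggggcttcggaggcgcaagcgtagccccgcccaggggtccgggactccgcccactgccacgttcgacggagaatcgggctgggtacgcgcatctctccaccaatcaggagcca
Dnajb11: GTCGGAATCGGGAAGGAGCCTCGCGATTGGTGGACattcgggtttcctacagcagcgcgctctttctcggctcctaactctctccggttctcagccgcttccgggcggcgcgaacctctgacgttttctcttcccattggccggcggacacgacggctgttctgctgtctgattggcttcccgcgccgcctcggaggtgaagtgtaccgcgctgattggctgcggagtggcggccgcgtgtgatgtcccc
The 49 bases of the P4hb peak and the 35 bases of the Dnajb11 peak that fall in these windows hold no CACGTG. The rest of each peak lies further upstream and was not read.

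Atf6 carried 2 CLOCK peaks. One with a score of 20 lay deep in the gene (chromosome 1, 170741381 to 170741585) where PDX1 also peaked (score 127). The second (score 13) was centred 206 bp outside a gene end (chromosome 1, 170868689 to 170868893). Both overlapped H3K27ac and H3K4me2. At Pdia3, an isomerase of the glycoprotein cycle, a CLOCK peak with a score of 20 overlapped a BMAL1 peak with a score of 13 about 10.5 kb downstream of the gene, both at an end of Serf2. The CLOCK peak in the Ddit3 window (score 16, 15.8 kb downstream of the gene encoding CHOP) was 344 bp from an end of Mars1. The one in the Ssr1 window (score 14, 18.6 kb upstream of this translocon-associated protein gene) was inside Cage1 and overlapped PDX1 (score 17). In 4 of the 8 CLOCK peaks, those of Herpud1, P4hb and Atf6, the ER gene had the nearest gene end. Counted only by nearest end, 3 of 35 genes had CLOCK (8.57%), against 4.25% of genes of like span.

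All 8 CLOCK peaks overlapped H3K4me2 and 7 overlapped H3K27ac, by 1 bp or more. In the whole CLOCK list the shares were 55.4% and 62.8%. The list is not limited to peaks near genes, and the shares for CLOCK peaks within 20 kb of other genes were not measured. By peak centre 6 of the 8 were in H3K4me2, against 50% of the list, and 7 in H3K27ac, against 60.5%. The exceptions in H3K4me2 were the P4hb peak and the Atf6 peak inside the gene, each at the edge of an interval. H2A.Z overlapped 0 of the 8, against 19.4% of the list, and BMAL1 overlapped 1, against 18.7%. CLOCK was present without BMAL1 in the windows of 5 genes (Herpud1, P4hb, Dnajb11, Ddit3 and Ssr1, 14.3%), against 4.53% of the other genes. BMAL1 without CLOCK was at 3 (Calr, Canx and Sel1l, 8.57%), against 10.3%, and both were at 2 (Pdia3 and Atf6, 5.71%), against 3.68%.

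BMAL1 peaks at the ER genes were all near the calling threshold of 13 tags. The 8 peaks had scores from 13 to 16, and 6 had scores of 13 or 14, as did 68.1% of the BMAL1 list. None reached 20, against 5.77% of the list. Atf6 held 3 (scores 14, 15 and 16), Sel1l, the adaptor of the degradation complex, held 2 (13 and 14), and the lectin chaperone gene Canx held 1 inside the gene (14). The peak in the Calr window (14) was inside Farsa. The Pdia3 peak and the Atf6 peak near a gene end were in H3K27ac and the other 6 were in neither H3K27ac nor H3K4me2.

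PDX1 had 32 peaks around 16 of the genes, and every stress sensor gene was among them. Ern1, which encodes IRE1, had 8 peaks, 7 of them inside its 90.2 kb span. The best had a score of 56 (chromosome 11, 106438893 to 106439127), and the others had scores of 13, 14, 18, 21, 27, 31 and 35. In 6 of the 8 cases the Ern1 peak was in H3K27ac. Atf6 had 4 peaks inside the gene, with scores of 127, 29, 29 and 27. The strongest (chromosome 1, 170741311 to 170741545) ranked 154 of 34883, at 12.98 times the input, in H3K27ac. Eif2ak3, which encodes PERK, had a peak with a score of 38 located 3684 bp upstream of the start in both marks and one with a score of 13 inside the gene. The sensor genes are long (60.8, 90.2 and 164 kb) and lie in the upper 2 deciles of gene spans, where windows catch more peaks.

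The ER oxidase gene Ero1lb had PDX1 peaks with scores of 43 (5867 bp upstream of the start) and 25 (2106 bp downstream), both in H3K27ac and H3K4me2. The PDX1 peak of Calr, with a score of 85, was 12298 bp downstream of the Calr start, inside Gadd45gip1. Pdia6 had one inside the gene (37) outside the marks. Wfs1, whose ER membrane protein is lost in Wolfram syndrome with diabetes, had one 1417 bp upstream of its start (28) outside every mark. The lowest of the best scores was 14 at P4hb. Of the 32 peaks 16 were in H3K27ac and 13 in H3K4me2, against 21.1% and 23.6% of the PDX1 list. That list is not limited to peaks near genes, and the shares for peaks within 20 kb of other genes were not measured. In 24 of the 32 the ER gene had the nearest gene end, and 19 of the 32 lay inside an ER gene. The matching shares for peaks around other genes were not measured. Counted only by nearest end, 13 of 35 genes had PDX1 (37.1%), against 25.3% of genes of like span. No PDX1 peak was called in the window of Hspa5, Hsp90b1, Hyou1, Xbp1, Atf4, Ddit3 or Herpud1. By role, PDX1 was at 3 of 3 sensor genes, where 74.5% of other genes of like span had it, and at 5 of 6 disulfide genes, where 39.8% did. It was at 4 of 11 chaperone genes, against 30.6%, and at 1 of 8 signalling genes (Eif2s1), against 27.6%. The counts were 2 of 5 for degradation, against 36.5%, and 1 of 2 for translocation, against 32.6%.

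**Figure D4:**
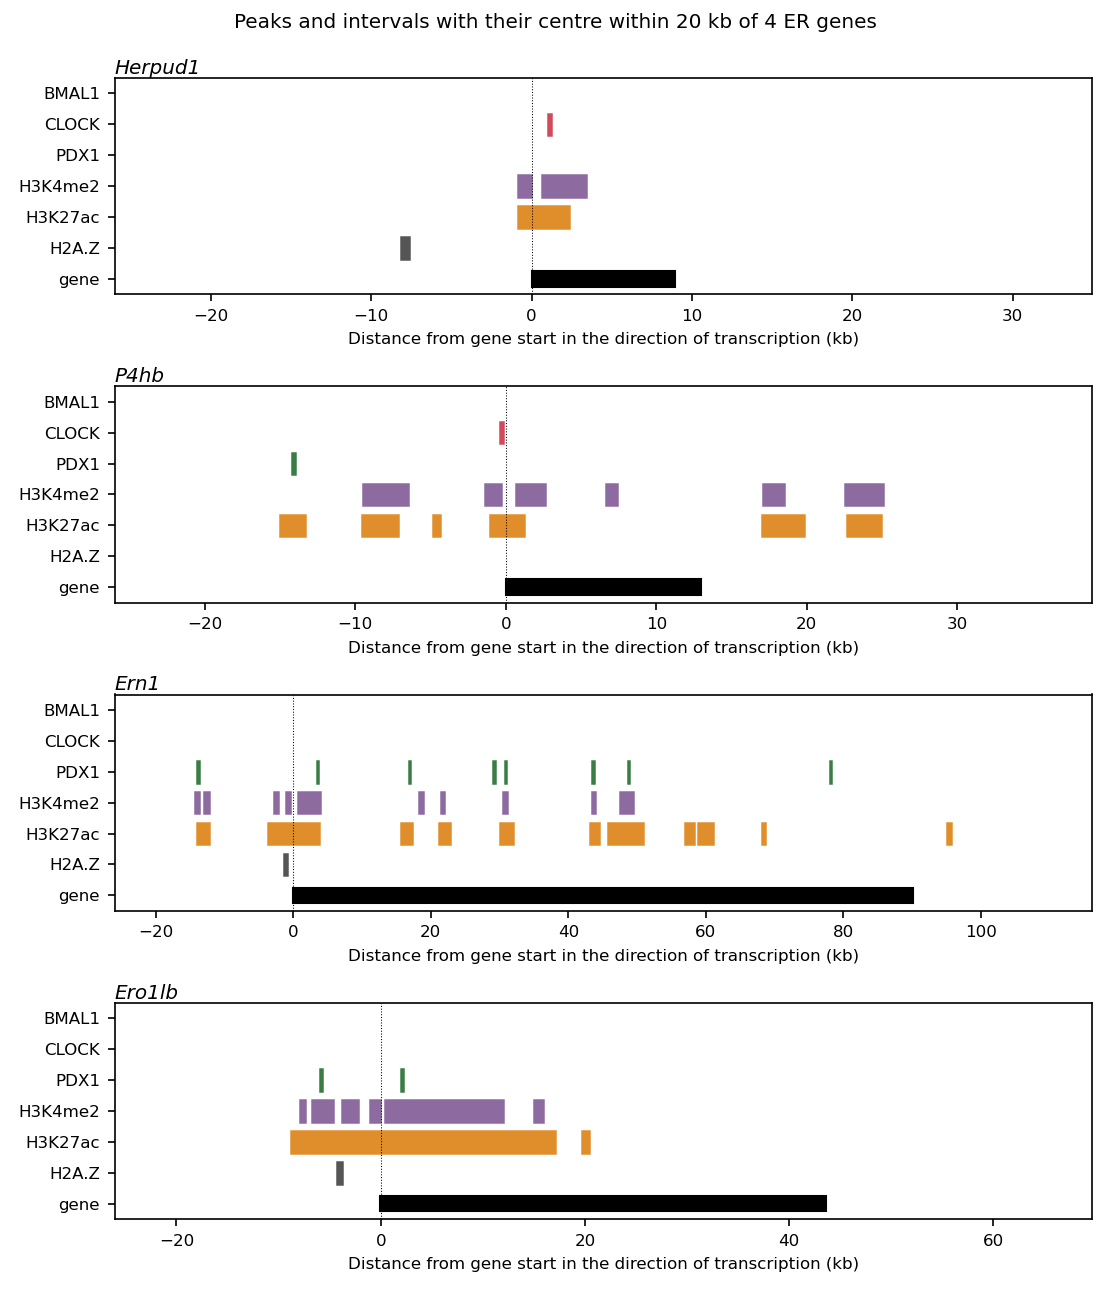
Maps of Herpud1, P4hb, Ern1 and Ero1lb, with distance from the gene start (x axis, kb, in the direction of transcription) and 1 row per target; boxes are peaks or intervals drawn to scale and the black box is the gene span. A single CLOCK peak stands 1101 bp downstream of the Herpud1 start, 8 PDX1 peaks stand along Ern1, and 1 H3K27ac interval of 25842 bp covers the start of Ero1lb.

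The amount of H3K27ac differed widely between the genes. Tags of all intervals in a window, scaled by HOMER to 10000000 tags per library, summed to a median of 400.6 at the ER genes and 70.0 at the other genes. Of the 35 genes 30 lay above the median of the others, 30 lay above that of genes of like span, and 10 were above the 90th percentile of other genes. Ero1lb had the highest sum, 2319 tags, nearly all from the interval over its start, which at 25842 bp and 2308 tags stood above 99.9% of the H3K27ac intervals by tags. Ern1 followed with 2121 tags in 11 intervals, the largest of which (894.3 tags) lay inside the gene and held its best PDX1 peak. Ddit3, the gene of the pro-apoptotic factor CHOP, had 1524 tags, of which 1342 were in a 4875 bp interval over its start, higher than 99.5% of intervals. The centre of that interval lay 746.5 bp upstream of the Ddit3 start, inside the neighbouring gene Mbd6, so its tags cannot be given to Ddit3 alone. Calr had 1190 tags and Atf6 1186. In the Calr sum a 650.0-tag interval centred beyond the gene, which held the PDX1 peak, was the largest, and 236.0 tags lay at its start.

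The transcription factor genes of the response differed in the same way. Atf4 had 1133 tags, with 1124 in a 5746 bp interval over the start. Xbp1 had 752 tags, with 520.5 over the start. Atf3, a factor induced by stress, had 0. The sums were 459 at Eif2ak3, 635 at Herpud1, 1170 at P4hb, 1038 at Hsp90b1 and 252 at Hspa5, where the interval over the start held 128.8. The interval over the start held 635.1 tags at Herpud1, 883.8 at Hsp90b1 and 210.7 at P4hb, and at Eif2ak3 none lay over it. Larger intervals in the P4hb window lay nearest to ends of Ppp1r27 (341.8 tags), Mcrip1 (295.6) and Arhgdia (265.1). The gene of BiP stood at percentile 71.7 of other genes and the gene of GRP94 at 95.3. By role, medians were 310 for chaperones, 419 for disulfide formation, 1186 for sensors, 419 for signalling, 64.1 for degradation and 301 for translocation. These sums are not adjusted for gene span, and the sensor genes are long, so their windows are wider. Among genes of like span Ern1 stood at percentile 98.4, Atf6 at 89.5 and Eif2ak3 at 79.5. The shorter genes Calr and Atf4 stood at 97.4 and 97.3.

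**Figure D5:**
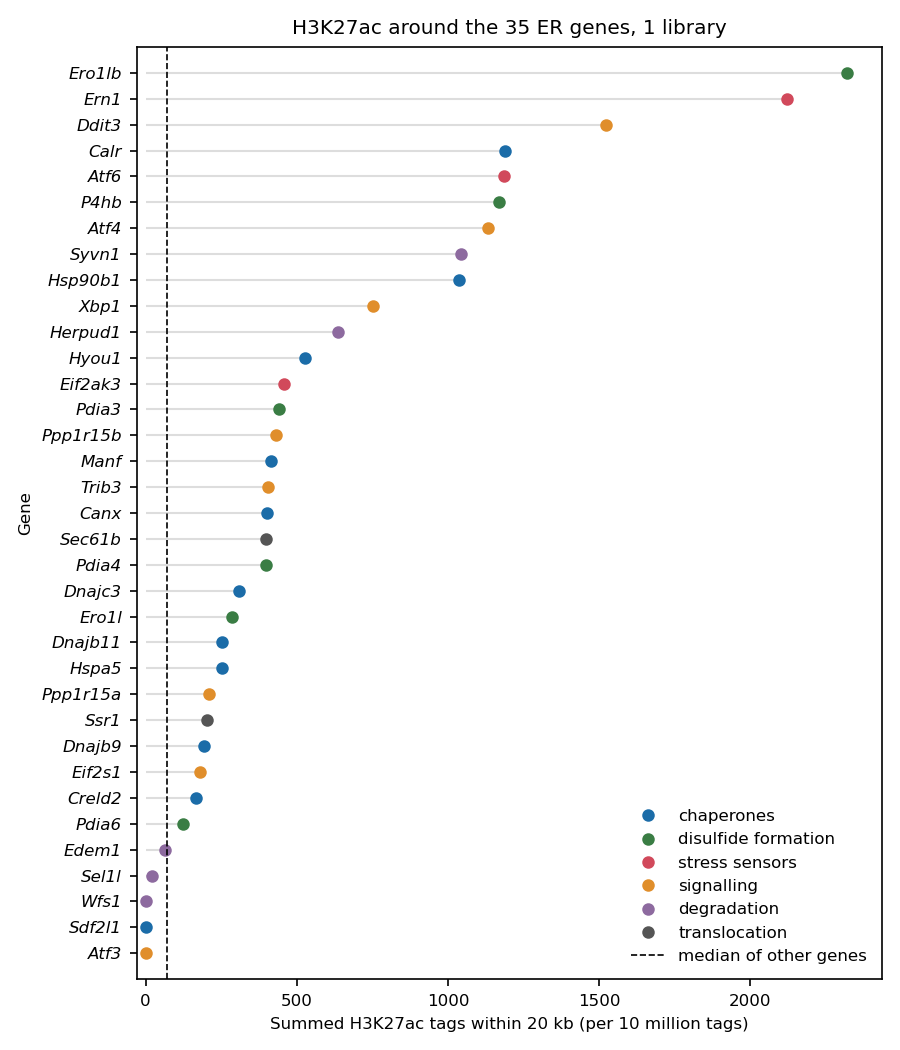
Summed H3K27ac tags within 20 kb (x axis, per 10000000 tags) for each of the 35 ER genes (y axis, ordered by value, coloured by role), with the median of the other protein-coding genes as a dashed line. Ero1lb (2319) and Ern1 (2121) stand highest, and Atf3, Sdf2l1 and Wfs1 stand at 0.

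At the low end stood Atf3, Sdf2l1 and Wfs1 with no H3K27ac interval, Sel1l with 20.1 tags and Edem1, a mannosidase-like degradation factor, with 64.1. The nearest H3K27ac interval was 40.9 kb from Atf3, 60.2 kb from Sdf2l1 and 58.5 kb from Wfs1. All 3 nevertheless had H3K4me2 within 1 kb of the start. Atf3 had a 3874 bp interval with 268.4 tags over it, Wfs1 a 2124 bp interval with 133.8 tags, and Sdf2l1, a partner of ER-resident co-chaperones, had intervals of 35.6 and 53.6 tags on its sides. Of 29 ER genes with H3K4me2 within 1 kb of the start, these 3 lacked H3K27ac in the window, and 13.9% of the other genes with H3K4me2 there did. H2A.Z was within 1 kb of the Sdf2l1 and Wfs1 starts and was not called around Atf3. The absence of an interval means that none passed the calling thresholds of this library, which also required 4 times the input.

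H3K4me2 sums were more even, with a median of 278.9 tags at the ER genes and 116.2 at the others, and 33 of 35 genes above the median of the others. Ero1lb was again the highest (706), followed by Syvn1 (660), and Pdia6 the lowest (25.1). H2A.Z sums had medians of 10.3 and 9.72 tags, and 19 of 35 genes lay above the median of the others. All 3 marks were found in the windows of 24 of the 35 genes (68.6%), against 49.6% of the other genes and 50.4% of those of like span. None of the 3 factors was found at 15 (42.9%), against 51.8% and 55.2%.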

How the data were processed

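Peak lists of 6 ChIP-seq libraries from Beta-TC6 cells were used. The authors aligned reads with Bowtie 1.1.1 to mm10 and processed them with HOMER (version not given in the sources used here), per the submitters' processing notes. Peaks were called per library against an input (factor style for BMAL1, CLOCK and PDX1, histone style for the marks), and the file headers record a minimum of 4 times the input with a Poisson p-value limit of 0.0001 set by the authors. Factor peaks also needed 13 tags, an FDR of 0.001 and 4 times the surrounding 10 kb, per the file headers. In the case of H2A.Z, the header and the input's title name the input of BMAL1 and CLOCK, while the sample description names the other; the list's own header was taken. The normalized tag count, as deposited, is a signal scaled to 10000000 tags, the deposited score ranks peaks within its list, and the deposited fold over input is a ratio made by HOMER. The deposited focus ratio is a fraction, and with the deposited region size and p-value columns it entered no result.

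Gene spans and starts came from RefSeq (GRCm38.p6), with the first listed promoter per gene. Peaks were assigned by centre within 20 kb of the span, overlaps needed 1 bp, and like-span shares averaged the other genes' shares over the 10 span deciles of the ER genes. Wilson 95% intervals cover counting error only. No list test was run, and whether an interval holds a share is given as a description only. Assignment was tested on simulated data (200 of 200 planted peaks recovered, 0 of 21887 genes differing from a direct search). Genes named were those with BMAL1 or CLOCK, the 5 with the best PDX1 scores, the 5 with the most and the fewest H3K27ac tags, those without H3K27ac and 11 fixed genes; others are named where a count called for them. The genes, lists and motifs were chosen with earlier results of these data known, and the profile around gene starts was added after the peaks were seen. Python 3.11.15, NumPy 2.4.6 and pandas 2.3.3 were used.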

Additional observations from a re-analysis of the deposited data

How the results depend on the processing

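No paired analysis was possible because each target had 1 library. Of 111 alternatives 81 left the result within its interval or within 1.5 times its count, and 30 moved it. With the peak centre inside the span the numbers of ER genes were 3 for BMAL1, 2 for CLOCK, 9 for PDX1 and 3 for H2A.Z. With a window of 5 kb they were 3 for BMAL1, 4 for CLOCK and 17 for H2A.Z, and with 50 kb 9 for BMAL1 and 25 for PDX1. With at least 11 normalized tags per 10000000 they were 1 for BMAL1, 2 for CLOCK and 9 for PDX1, and with scores of at least 20 they were 0, 3 and 10. At 8 times the input they were 3 for CLOCK, 18 for H3K4me2 and 10 for H2A.Z. By the nearest gene end, an alternative chosen after seeing the data, they were 3 for BMAL1 and 3 for CLOCK. The lead of CLOCK over genes of like span ranged from 2.86 to 14.6 percentage points over its alternatives and kept its sign, but its interval held the like-span share inside the span, at 5 kb, at 8 times the input, at 11 tags, at scores of 20, by nearest end and among genes with an acetylated end. For BMAL1 the sign turned at 11 tags (-1.71), at scores of 20 (-1.73) and among acetylated genes (-4.80).

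The lead of H3K4me2, 22.2 points with the 20 kb window, was 31.3 inside the span, 28.1 at 5 kb, 25.2 in the upper 50% by score, 26.5 at 8 times the input, 24.0 with span quintiles, 25.3 against all genes and 1.78 among genes with an acetylated end. For H3K27ac, 26.4 became 32.8 inside the span and 37.9 at 5 kb. At 50 kb both leads were smaller, 15.6 for H3K4me2 and 18.2 for H3K27ac. At 50 kb the interval left out the like-span share for PDX1 (a lead of 16.6) and H2A.Z (18.8), and for H2A.Z also by any overlap (17.8). For H2A.Z the difference of 12.3 points turned to -22.0 inside the span, where the interval left out the like-span share. The count of 19 genes with H3K4me2 on both sides of an uncovered start was 19 with flanks of 1 kb and of 2 kb. Of 48 factor peaks at the genes, 25 overlapped H3K27ac, 25 had their centre in it and 24 all of their length. The cause of these shifts was not tested. Depth limits what the factor lists hold, since a site under 13 tags enters none of them.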
